A study of Mus musculus with 12 samples.

Results

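The calcineurin-NFAT pathway and the calcium entry that feeds it were followed through 10 genes chosen by name: the NFAT factors Nfatc1, Nfatc2 and Nfatc3, the calcineurin subunits Ppp3ca, Ppp3cb and Ppp3r1, the regulators Rcan1 and Dyrk1a, and Orai1 and Stim1 of store-operated calcium entry. The rule holds no threshold on a measured value, but the genes were chosen with earlier results of these data known. All 10 were found by symbol among the 56691 mouse genes of the count table, and all 10 were among the 15138 genes that had at least 30 reads over the 12 samples and were tested. Every mouse carried the Tg4 T cell receptor, the Nr4a3-Tocky Timer reporter and the IL-10 GFP reporter, and each of the 12 mice gave 1 library. All received 4 mg/kg of [4Y]-MBP peptide, an antibody treatment 24 h later and 0.4 mg/kg of the peptide after a further 30 min, and splenic cells were taken 12 h after that. The treatments, with 3 mice each, were an isotype pool (rat IgG1 with rat IgG2a), anti-PD-L1 at 0.5 mg, anti-Lag3, and both blocking antibodies pooled at equal ratio (co-blockade, CB). Live CD4+ T cells that held both the blue and the red form of the Timer protein were sorted, with an exclusion channel for cells of other lineages, so every sample consisted of cells that had transcribed Nr4a3. Each treatment was stained with its own CD4 conjugate for the sort, so conjugate and treatment cannot be told apart. The comparisons ask whether blocking one or both receptor pathways went with a different mRNA level of the NFAT machinery itself in such responder cells.

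In a resting T cell, NFAT factors are phosphorylated and stay in the cytoplasm. Signalling by the T cell receptor empties the calcium store of the endoplasmic reticulum, the store sensor STIM1 opens the plasma membrane channel ORAI1, and the calcium that enters activates the phosphatase calcineurin through calmodulin. Calcineurin then dephosphorylates NFAT, which moves into the nucleus, and kinases such as DYRK1A and GSK3 return it to the cytoplasm. Most of this regulation is on proteins and their location, which mRNA counts do not measure.

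Rcan1, which encodes an inhibitor of calcineurin, is itself a classic NFAT target through an internal promoter, and its promoters are therefore the ones shown. RefSeq (GRCm38.p6) gives Rcan1 start sites with the following 250 bases upstream, written 5′ to 3′ on the minus strand, with each match to the NFAT core GGAAA or its reverse complement TTTCC in capitals. The first window, at chr16:92400079-92400328, lies upstream of the internal start site and held 3 matches. The second, at chr16:92466170-92466419, lies upstream of a start site nearer the 5′ end of the gene and held 0 matches.
Rcan1 internal: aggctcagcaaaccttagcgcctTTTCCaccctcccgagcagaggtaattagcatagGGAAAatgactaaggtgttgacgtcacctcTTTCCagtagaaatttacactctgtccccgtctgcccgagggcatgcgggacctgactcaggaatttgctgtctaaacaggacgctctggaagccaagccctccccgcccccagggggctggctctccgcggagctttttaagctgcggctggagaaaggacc
Rcan1 upstream: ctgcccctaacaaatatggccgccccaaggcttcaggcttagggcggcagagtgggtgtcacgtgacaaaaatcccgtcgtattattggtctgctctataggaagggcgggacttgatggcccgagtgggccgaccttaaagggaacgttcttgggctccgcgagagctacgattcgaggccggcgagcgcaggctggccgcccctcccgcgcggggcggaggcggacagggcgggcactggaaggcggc
The core is short and common: 55.6% of the 32851 promoter windows of this length held at least 1 match, and 6.39% held at least 3. RefSeq windows of 8 of the 10 genes were counted, and 7 of these 13 windows held a match. Windows of Nfatc1 and Ppp3ca were left out of the count, so these numbers do not cover them. The libraries were primed at the 3′ end of the mRNA. Reads were counted per gene, so the counts of Rcan1 sum over transcripts from these start sites.

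None of the 10 genes passed the test in any of the 6 comparisons (edgeR quasi-likelihood test, Benjamini-Hochberg adjusted p under 0.05 over all genes tested). Between CB and isotype, the comparison with the most calls, 4.29% of all genes tested were called (353 higher and 296 lower), beside 0 of these 10. Nfatc3 came nearest, with a fitted level in CB of 0.764 times that in isotype and an adjusted p of 0.0839. At an unadjusted p under 0.05 stood 3 of the 10 (Nfatc3 and Dyrk1a lower, Ppp3r1 higher in CB), where 14.9% of all genes did. DESeq2's Wald test called 1 of the 10, Nfatc3, and put the same 3 genes at an unadjusted p under 0.05. The median log2 fold change of the 10 genes was -0.15, beside 0 for all genes tested, and the fitted values ran from -0.39 (Nfatc3) to 0.38 (Rcan1). A p that misses the threshold does not show that levels were equal, so the interval of each difference is given with it. In bulk RNA, fewer cells of one kind and less RNA per cell cannot be told apart.

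**Figure D1:**
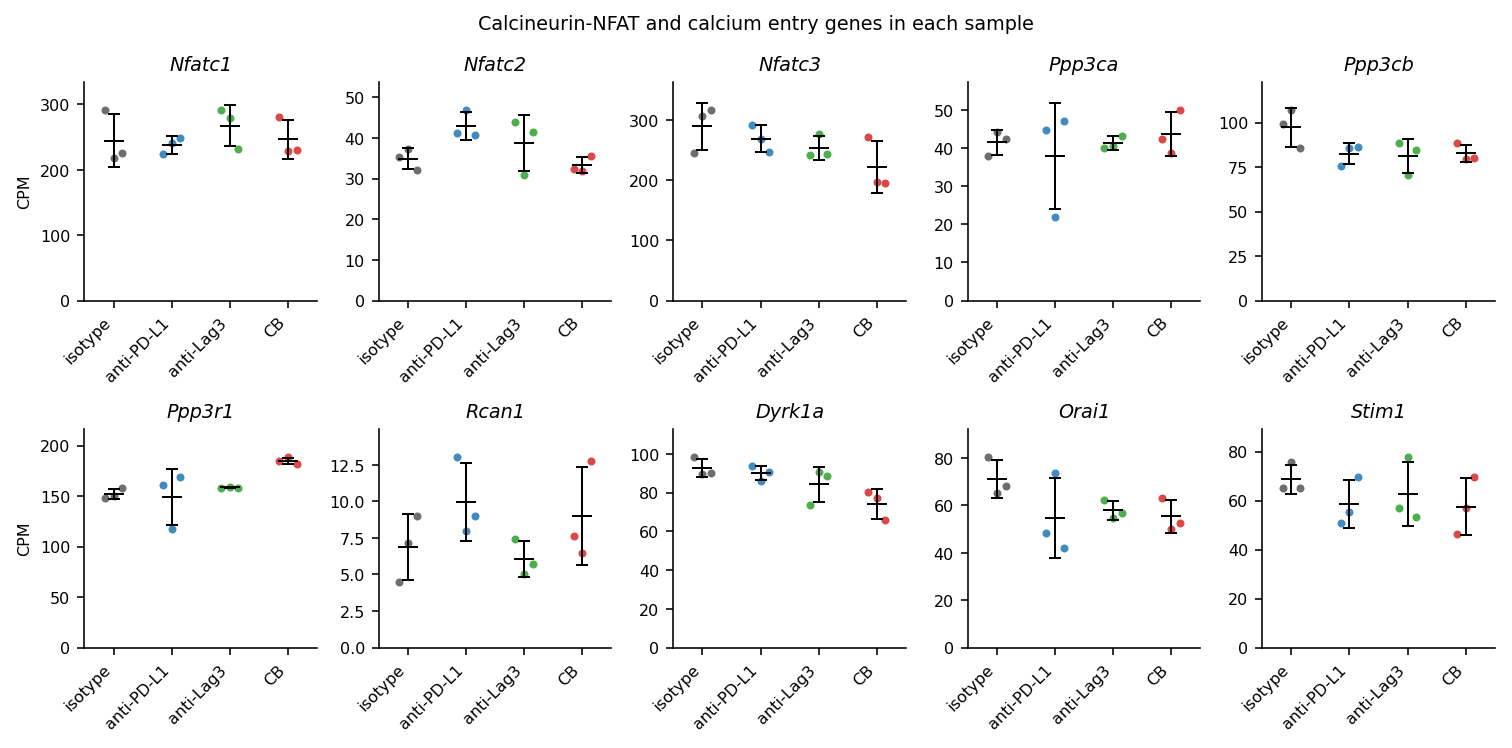
CPM (reads scaled to a common library size after TMM adjustment) of the 10 genes in each of the 12 samples, by treatment, with the mean and SD of 3 samples as bars; every axis starts at 0. Most groups overlap, while the 3 CB samples of Ppp3r1 lie above all other samples and those of Dyrk1a lie below the isotype and anti-PD-L1 samples.

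The 3 NFAT factors of the conventional calcium-regulated family were all read at depth. Nfatc1 (ENSMUSG00000033016, chr18:80606205-80713071, minus strand, GRCm38), whose transcription is induced by NFAT in activated lymphocytes, had 58024 reads over the 12 samples. Its level was 245 ± 40.3 CPM in isotype (SD, n = 3), 238 ± 13.1 with anti-PD-L1, 268 ± 31.1 with anti-Lag3 and 246 ± 30.1 with CB. The sample values ran from 217 to 291 CPM, and every group overlapped every other. CB differed from isotype by 0.01 on the log2 scale (SE 0.121, 95% interval -0.24 to 0.26, adjusted p = 1), so the interval spans 0.847 to 1.20 times the isotype level.

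Nfatc2 (ENSMUSG00000027544, chr2:168476410-168601657, minus strand), which encodes NFAT1, a factor already present in resting T cells, had fewer reads (8678). It stood at 35.3, 37.3 and 32.2 CPM in isotype, 41.3, 46.8 and 40.8 after anti-PD-L1, 44.0, 30.9 and 41.4 after anti-Lag3, and 32.5, 31.9 and 35.5 after CB. All 3 anti-PD-L1 samples were above the isotype and above the CB samples, and the anti-Lag3 samples overlapped every other group. The difference between anti-PD-L1 and isotype was 0.30 on the log2 scale (95% interval -0.09 to 0.69, adjusted p = 0.617), and that between CB and anti-PD-L1 was -0.37 (-0.76 to 0.02, adjusted p = 0.561). Between CB and isotype it was -0.07 (-0.46 to 0.32, adjusted p = 0.957). The interaction, the part of the CB effect that the sum of the single-antibody effects leaves over, was larger in size for Nfatc2 than for the other 9 genes, at -0.52 (-1.07 to 0.03, adjusted p = 0.87).

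Nfatc3 (ENSMUSG00000031902, chr8:106058840-106130537, plus strand), which encodes NFAT4, had 59346 reads. Its values were 244.9, 306.3 and 315.9 CPM in isotype, 291.3, 267.9 and 246.4 after anti-PD-L1, 240.9, 276.5 and 243.2 after anti-Lag3, and 270.8, 197.2 and 194.9 after CB. CB samples 2 and 3 were below all 9 other values, while CB sample 1 was above isotype sample 1. Its log2 fold change from isotype to CB was -0.39 (95% interval -0.65 to -0.13), with an unadjusted p of 0.0047 and an adjusted p of 0.0839 in edgeR. This call depended on the processing: DESeq2's Wald test gave an adjusted p of 0.0267, and edgeR with no filter on low counts gave 0.0243. It also turned on single libraries, with -0.50 (adjusted p = 0.036) without isotype sample 1 and -0.56 (adjusted p = 0.0122) without CB sample 1. Its adjusted p ranged from 0.0122 to 0.991 over all alternatives. The highest came from DESeq2 tested against a log2 fold change of 0.2, which asks a stricter question than the tests against 0. Esrp2, on the other strand, covers the annotated 3′ end of Nfatc3 and had 0 reads.

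The single antibodies differed from isotype by -0.11 (anti-PD-L1, adjusted p = 0.888) and -0.19 (anti-Lag3, adjusted p = 0.842) for Nfatc3. CB differed from anti-PD-L1 by -0.28 (95% interval -0.54 to -0.02, unadjusted p = 0.0334 and adjusted p = 0.495 in edgeR) and from anti-Lag3 by -0.20 (adjusted p = 0.606). The mean level was 289 CPM in isotype, 269 after PD-L1 blockade, 254 after Lag3 blockade and 221 in CB, and neither isotype and anti-PD-L1 nor anti-Lag3 and CB differed past the threshold; the single antibodies were not tested against each other.

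Of calcineurin, the alpha and beta catalytic subunits and the regulatory subunit were followed. Ppp3ca (ENSMUSG00000028161, chr3:136670124-136937727, plus strand), the catalytic alpha subunit, stood at 37.9, 44.1 and 42.4 CPM in isotype, 44.6, 21.9 and 47.0 after anti-PD-L1, 39.9, 40.6 and 43.2 after anti-Lag3, and 42.4, 38.7 and 49.9 after CB. Anti-PD-L1 sample 2 was low beside the other 11 samples, and it was also the lowest sample of Ppp3r1. From isotype to CB the log2 fold change was 0.07 (95% interval -0.38 to 0.53, adjusted p = 0.965). Ppp3cb (ENSMUSG00000021816, chr14:20499364-20546573, minus strand), the catalytic beta subunit, was at 97.3 ± 10.8 CPM in isotype, 82.5 ± 5.81 with anti-PD-L1, 81.3 ± 9.57 with anti-Lag3 and 82.7 ± 4.90 with CB (SD, n = 3). The 3 treated means were close to one another and below isotype, with overlapping samples. The differences from isotype were -0.24 with anti-PD-L1 (adjusted p = 0.593), -0.26 with anti-Lag3 (adjusted p = 0.805) and -0.23 with CB (adjusted p = 0.415); these 3 comparisons share the isotype samples.

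Ppp3r1 (ENSMUSG00000033953, chr11:17159263-17200375, plus strand), the calcium-binding regulatory subunit calcineurin B, had its highest mean in CB. It stood at 148.0, 150 and 157.8 CPM in isotype, 161.1, 117.6 and 169.4 after anti-PD-L1, 158.5, 159.4 and 158.4 after anti-Lag3, and 184.6, 188.4 and 182.0 after CB. All 3 CB samples were above all 9 others, which held for 2.35% of all genes tested, and the CB samples spread little (185 ± 3.22, SD, n = 3). The log2 fold change was 0.28 against isotype (SE 0.122, 95% interval 0.03 to 0.53, unadjusted p = 0.0277 and adjusted p = 0.247 in edgeR), which is 1.22 times the isotype level. It was 0.31 against anti-PD-L1 (0.06 to 0.56, adjusted p = 0.411) and 0.22 against anti-Lag3 (-0.03 to 0.47, adjusted p = 0.566). The value is uncertain because Wdr92, on the same strand, covers the annotated 3′ end of Ppp3r1, where such libraries read. Wdr92 had 2917 reads beside 37634 for Ppp3r1, and its own log2 fold change to CB was 0.13 (adjusted p = 0.958).

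Among the regulators, Rcan1 (ENSMUSG00000022951, chr16:92391953-92470867, minus strand) had the fewest reads of the 10 genes, 1851 in all and 89 to 277 per sample. It stood at 4.48, 7.16 and 9.00 CPM in isotype, 13.0, 7.96 and 8.97 after anti-PD-L1, 7.44, 5.05 and 5.73 after anti-Lag3, and 7.65, 6.49 and 12.8 after CB. The highest sample was 2.90 times the lowest. The anti-Lag3 samples (up to 7.44 CPM) lay just below the anti-PD-L1 samples (from 7.96 CPM), while all other groups overlapped. The single antibodies were not tested against each other, and the share of all genes that separate them was not counted. Its biological coefficient of variation was 37.6%, against 12.2% to 19.7% for the other 9 genes and a median of 37.6% for all genes tested. CB against isotype gave a log2 fold change of 0.38 (SE 0.436, 95% interval -0.51 to 1.28, adjusted p = 0.782), so the interval reaches from 0.701 to 2.43 times the isotype level.

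Dyrk1a (ENSMUSG00000022897, chr16:94570010-94695517, plus strand), a kinase that primes NFAT for its export from the nucleus, stood at 98.2, 89.6 and 90.1 CPM in isotype and 93.5, 86.0 and 90.8 after anti-PD-L1. It was at 73.6, 90.4 and 88.6 CPM with anti-Lag3 and at 80.2, 77.1 and 65.6 after CB. The 3 CB samples were below all isotype and all anti-PD-L1 samples, and they overlapped the anti-Lag3 samples. Fitted log2 fold changes were -0.32 against isotype (SE 0.133, 95% interval -0.59 to -0.04, unadjusted p = 0.0246 and adjusted p = 0.23 in edgeR) and -0.28 against anti-PD-L1 (-0.55 to -0.0038, adjusted p = 0.541).

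Both genes of the calcium entry pair had lower fitted levels than isotype under every treatment, none past the threshold. Orai1 (ENSMUSG00000049686, chr5:123015074-123030456, plus strand), the pore of the channel, stood at 80.3, 65.0 and 68.2 CPM in isotype, 48.4, 73.7 and 41.9 after anti-PD-L1, 62.5, 54.6 and 56.7 after anti-Lag3, and 63.2, 50.1 and 52.8 after CB. The anti-Lag3 and the CB samples were all below the isotype samples, and anti-PD-L1 sample 2 alone of its group lay among them. The differences from isotype on the log2 scale were -0.38 with anti-PD-L1 (95% interval -0.75 to -0.01, adjusted p = 0.593), -0.30 with anti-Lag3 (-0.67 to 0.07, adjusted p = 0.805) and -0.36 with CB (-0.73 to 0.01, adjusted p = 0.348). CB differed from anti-PD-L1 by 0.02 (-0.35 to 0.39, adjusted p = 1) and from anti-Lag3 by -0.07 (-0.44 to 0.31, adjusted p = 1).

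Stim1 (ENSMUSG00000030987, chr7:102267806-102437319, plus strand), the sensor of the calcium store, was at 68.6 ± 6.04 CPM in isotype, 58.6 ± 9.62 with anti-PD-L1, 62.7 ± 13.1 with anti-Lag3 and 57.5 ± 11.6 with CB (SD, n = 3). Samples of all 4 groups overlapped, between 46.2 and 77.6 CPM. For Stim1, CB differed from isotype by -0.25 on the log2 scale (95% interval -0.62 to 0.11, adjusted p = 0.528).

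Samples of CB and isotype did not overlap for 3 of the 10 genes. Ppp3r1 lay above, as 10.4% of all genes tested did, and Dyrk1a and Orai1 lay below, as 9.62% did. Between CB and anti-PD-L1, Ppp3r1 lay above (6.94% of all genes) and Nfatc2 and Dyrk1a below (5.75%). Between CB and anti-Lag3, Ppp3r1 lay above (7.68%) and 0 of the 10 below (7.09%). Between anti-PD-L1 and isotype, Nfatc2 lay above (5.34%) and 0 of the 10 below (6.46%), and between anti-Lag3 and isotype Ppp3r1 lay above (5.25%) and Orai1 below (4.81%).

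**Figure D2:**
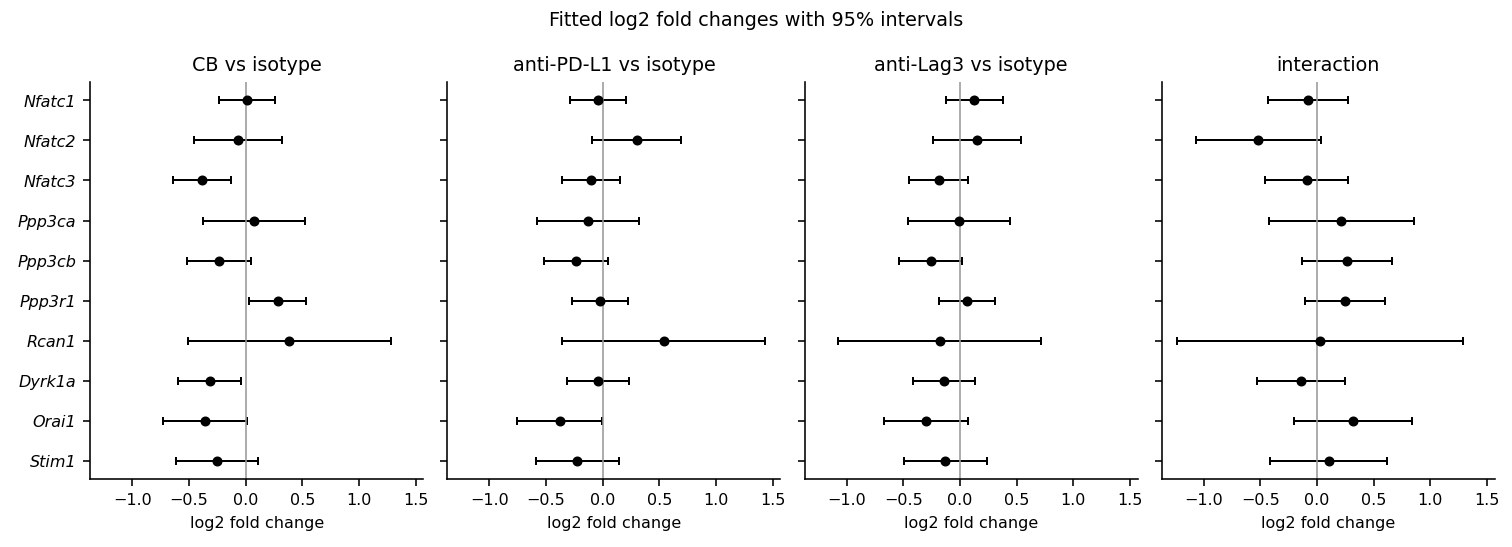
Fitted log2 fold changes of the 10 genes with 95% intervals, for CB, anti-PD-L1 and anti-Lag3 against isotype and for the interaction. The intervals of Nfatc3, Dyrk1a and Ppp3r1 leave out 0 in the first panel, with adjusted p of 0.0839, 0.23 and 0.247, and that of Rcan1 is the widest in each panel.

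The other comparisons held fewer differences throughout the transcriptome. Anti-PD-L1 against isotype called 0.0330% of all genes, CB against anti-PD-L1 called 0.370% and CB against anti-Lag3 called 0.694%. Anti-Lag3 against isotype and the interaction called 0 genes with edgeR, with 5.21% and 5.93% of all genes at an unadjusted p under 0.05, and DESeq2's Wald test called 9 and 5 genes. At an unadjusted p under 0.05, edgeR put 1 of the 10 for anti-PD-L1 against isotype (Orai1), beside 7.84% of all genes. It put 3 there for CB against anti-PD-L1 (Nfatc3, Ppp3r1 and Dyrk1a), beside 9.08%. It put 0 there for CB against anti-Lag3 (9.46% of all genes), anti-Lag3 against isotype and the interaction. DESeq2's Wald test called 0 of the 10 in these 5 comparisons. The median log2 fold change of the 10 genes was -0.07 for anti-PD-L1 and -0.13 for anti-Lag3 against isotype, with single genes between -0.38 and 0.54 and between -0.30 and 0.15.

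The genes around these 10 were described through 5 further lists, chosen with earlier results of these data known. The list of other NFAT and calcineurin genes (Nfat5, calmodulins, other RCAN proteins, immunophilins) had 13 of 16 members tested and 0 called between CB and isotype by edgeR and by DESeq2, with 3 and 4 members at an unadjusted p under 0.05. Its median log2 fold change was -0.07. The member with the smallest adjusted p was Ppia, which encodes cyclophilin A, the binding partner of ciclosporin, at 198 ± 13.8 CPM in isotype and 158 ± 25.4 in CB (SD, n = 3). Its log2 fold change was -0.32 (adjusted p = 0.182), and it is uncertain because Ppia has near-identical pseudogenes that can take its reads. All 7 further NFAT export kinases (GSK3, casein kinase 1 and DYRK genes) were tested and 0 were called by either tool, with 0 at an unadjusted p under 0.05, a median of -0.09 and the smallest adjusted p for Dyrk2 (-0.34, adjusted p = 0.379).

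Of 23 listed calcium entry and store genes, 20 were tested, 1 was called higher and 1 lower between CB and isotype, and the median was -0.22, beside 4.29% of all genes called and a median of 0; both called genes encode pumps that return calcium to the endoplasmic reticulum, and they changed in opposite directions. Atp2a2 (ENSMUSG00000029467), encoding SERCA2, was at 105.8, 101.1 and 98.3 CPM in isotype and rose to 153.8, 139.9 and 151.7 in CB, with the anti-PD-L1 samples (123.6, 135.4 and 114.7) and anti-Lag3 samples (128.7, 126.1 and 124.1) between them. Its log2 fold change to CB was 0.54 (SE 0.116, adjusted p = 0.005). Atp2a3 (ENSMUSG00000020788), encoding SERCA3, was at 163.1, 143.6 and 108.5 CPM in isotype and fell to 80.7, 73.3 and 94.97 in CB, with no overlap (-0.74, SE 0.145, adjusted p = 0.00252). The anti-PD-L1 samples of Atp2a3 (110.9, 108.9 and 121.2) and its anti-Lag3 samples (94.1, 116.4 and 106.5) overlapped the isotype samples. The list had 6 genes at an unadjusted p under 0.05, beside 14.9% of all genes, and DESeq2 also called Plcg1 lower, which was chosen for mention after its value was seen.

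**Figure D3:**
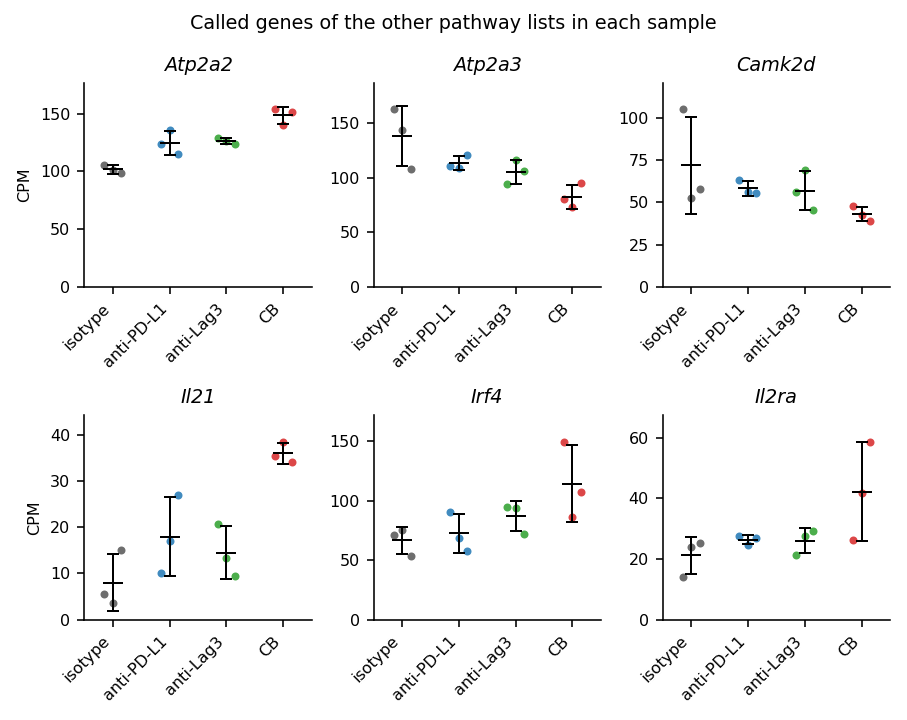
CPM in each of the 12 samples, with the mean and SD of 3 samples, for the 6 genes of the further pathway lists that were called between CB and isotype. Atp2a2, Il21, Irf4 and Il2ra are higher and Atp2a3 and Camk2d lower in CB, with both single antibodies between isotype and CB in their means.

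Of the calcium-calmodulin kinases, 6 of 7 were tested and 1 was called, lower, beside 4.29% of all genes called in either direction (296 lower); it was also the 1 member at an unadjusted p under 0.05. Camk2d (ENSMUSG00000053819), encoding a chain of calcium-calmodulin kinase II, was at 105.1, 52.5 and 57.9 CPM in isotype and 47.6, 42.7 and 39.1 in CB (log2 fold change -0.74, SE 0.207, adjusted p = 0.0368). Isotype sample 1 stood far above the other isotype samples, and without it the value was -0.36 (adjusted p = 0.434). The call was also lost without CB sample 1 (adjusted p = 0.0583), CB sample 2 (0.104) or CB sample 3 (0.175). The median of the list was -0.30.

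Of the textbook NFAT target genes of T cells, 13 of 16 were tested, 3 were called higher and 0 lower between CB and isotype, beside 4.29% of all genes called (353 higher and 296 lower). At an unadjusted p under 0.05 stood 4 of the 13, beside 14.9% of all genes, and the median of the list was -0.21. Of the 13, 6 had a fitted value above 0 and 7 below. Il2, Ifng, Fasl and Egr2 had few reads and wide errors (SE 1.59, 1.2, 0.897 and 0.794), so their signs carry little. The gene among the 4 that was not called, Tox, was lower (-0.38, unadjusted p = 0.0352 and adjusted p = 0.281 in edgeR). Nr4a3 had the lowest value of the list (-0.62, adjusted p = 0.377 in edgeR). Tox and Nr4a3 were chosen for mention after their values were seen. Il3, Il4 and Csf2 had 0 reads in these libraries. Counting error alone would allow up to 3 reads per library, a limit that assumes independent reads. Reads of these libraries are not independent molecules, so the true level of these genes may be higher. Since earlier results of these data were known when the list was made, its count is not independent evidence of a direction. Il21, encoding a cytokine of follicular helper T cells, was at 5.49, 3.55 and 15.1 CPM in isotype and rose to 35.4, 38.5 and 34.2 in CB (2.16, SE 0.416, adjusted p = 0.00203). Irf4, encoding a transcription factor that scales with receptor signalling, was at 70.8, 75.6 and 53.3 CPM in isotype and rose to 149.4, 86.0 and 107.4 in CB (0.78, SE 0.187, adjusted p = 0.0122). Without isotype sample 3 or CB sample 1 the Irf4 call was lost, at 0.64 (adjusted p = 0.081) and 0.54 (adjusted p = 0.148). Il2ra, encoding the alpha chain of the IL-2 receptor, was at 14.1, 24.1 and 25.4 CPM in isotype and rose to 26.1, 41.8 and 58.6 in CB (0.99, SE 0.268, adjusted p = 0.0288). That call was lost without isotype sample 1 (0.77, adjusted p = 0.18), CB sample 2 (1.00, adjusted p = 0.07) or CB sample 3 (0.68, adjusted p = 0.294).

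In the 5 other comparisons 0 genes of the 5 lists were called by edgeR or by DESeq2, with at most 6 genes of a list at an unadjusted p under 0.05 with either tool. Il21 differed from isotype by 1.16 after PD-L1 blockade (adjusted p = 0.462) and by 0.85 after Lag3 blockade (adjusted p = 0.805), and its interaction was 0.15 (95% interval -1.01 to 1.31). For Atp2a2 the same values were 0.29 (adjusted p = 0.532), 0.31 (adjusted p = 0.805) and -0.06 (-0.40 to 0.28).

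**Figure D4:**
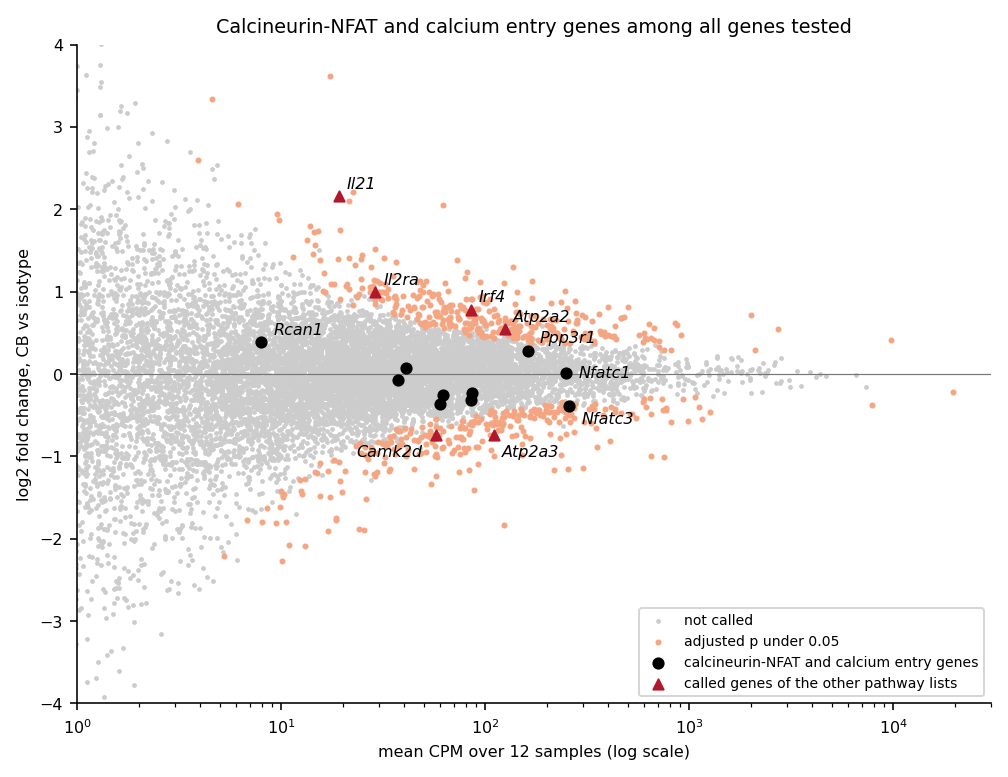
Log2 fold change between CB and isotype against mean CPM over the 12 samples (log scale) for tested genes with a mean of at least 1 CPM and a fold change within 4 on the log2 scale; 4030 of the 15138 lie outside the axes. The 10 genes (black points) lie within the grey band of genes not called, with Nfatc3 at its lower edge, and the 6 called genes of the further lists (red triangles) lie among the called genes.

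Reads counted on mouse genes were 16449370 to 22151025 per sample (median 19176439). The labelled cell type was checked on defining markers: the 7 T cell markers summed to 2020 to 2620 CPM, while the 6 myeloid markers summed to 5.08 to 17.5 (Cd14 at 0), the 4 NK cell markers to 0 to 4.70 and the 4 platelet markers to 0 to 3.31. The myeloid sums were 14.7 to 17.5 CPM after anti-PD-L1, above those in isotype (7.2 to 13.6), anti-Lag3 (7.52 to 12.1) and CB (5.08 to 8.08). The 2 CD8 markers summed to 40.9 to 45.3 CPM in isotype, 24.6 to 30.5 after anti-PD-L1, 29.2 to 46.4 after anti-Lag3 and 25.0 to 33.2 in CB, so the anti-PD-L1 and CB samples lay below isotype. The 5 erythroid markers summed to 241 to 449 CPM in isotype, 170 to 217 after anti-PD-L1, 213 to 287 after anti-Lag3 and 150 to 198 in CB, with Hbb-bs and Hbb-bt called lower than isotype in CB by edgeR and Hbb-bs also after anti-PD-L1 by DESeq2. The T cell markers summed to 2460 to 2620 CPM in isotype and 2020 to 2070 in CB, with Cd3e, Cd4 and Thy1 called lower. The part of these shifts in the values above was not tested.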

How the data were processed

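Sorted splenic responder CD4+ T cells of 12 mice were measured by 3′ mRNA sequencing without molecular identifiers, so reads are not independent molecules. The p-values measure the spread between libraries from different mice, in which mouse, sort and library preparation cannot be told apart. Per the methods and the labels, reads were trimmed with cutadapt 1.18, mapped to GRCm38 with STAR 2.6.1a and counted on genes with featureCounts 1.6.4; the strand setting and the annotation release are not given in the sources used here. The authors deposited uniquely mapped raw counts without normalization, which were used here, and a table of rlog values, which was not used. Spike-in rows (114, 0.719% to 1.29% of counts) were left out, and the number of sample columns not used was 0. Symbols and coordinates came from GENCODE for GRCm38, which names 52073 of 56691 genes.

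Genes with at least 30 reads over all samples were fitted in edgeR 4.0.16 (limma 3.58.1, R 4.3.3) with TMM, 1 mean for each of 4 groups, quasi-likelihood tests, prior count 0.125 and Benjamini-Hochberg adjustment. Intervals are 95% intervals from the standard error and the moderated degrees of freedom, and CPM used TMM-adjusted library sizes. DESeq2 1.42.0, other filters and scalings, a replicate block, only the groups compared and each sample left out were alternatives. The fit was tested on simulated data, and no 2 libraries of a group agreed within sampling noise. The labels name no batch; the methods describe sorting in batches of 1 sample per treatment without saying which samples. Comparisons with a shared group are not independent.

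The 10 genes, the lists, the tests and the alternatives were chosen with earlier results of these data known. Named were all 10 genes and, of each further list, every gene called between CB and isotype or else the gene with the smallest adjusted p. Genes of similar pattern were to be named for called members, and none was called. The sum of 1 list of cell type markers is not reported here.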

Additional observations from a re-analysis of the deposited data

How the results depend on the processing

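Of the 10 members, 0 were called in CB against isotype, and 1 was called (Nfatc3) with DESeq2's Wald test against 0, with no filter on low counts and with the replicate block, and 0 to 1 with single samples left out (1 without isotype sample 1 and without CB sample 1); the cause was not tested. In the other 5 comparisons 0 were called under every alternative run. Nfatc3 had log2 fold changes of -0.40, -0.39 and -0.40 (adjusted p = 0.0267, 0.0243 and 0.0295) under those 3 settings. Members without a call changed sign with a sample left out: Nfatc1 ranged from -0.10 to 0.15 (-0.07 and -0.05 without isotype samples 2 and 3, -0.10 without CB sample 1) and Ppp3ca from -0.0332 (without CB sample 3) to 0.15. Over all genes, CB against isotype gave 649 calls, 233 with DESeq2 tested against a log2 fold change of 0.2, and 394 to 705 with a sample left out (405, 421 and 394 without isotype sample 1, CB sample 1 and CB sample 3). With DESeq2's test against 0, against 0.2, with no filter and with the block, the counts were 56, 11, 40 and 23 (5 in the reported fit) for anti-PD-L1 against isotype, 9, 2, 14 and 9 (0) for anti-Lag3 against isotype, 178, 18, 150 and 137 (56) for CB against anti-PD-L1, 280, 41, 252 and 208 (105) for CB against anti-Lag3, and 5, 2, 10 and 4 (0) for the interaction. With only the groups compared they were 3 for anti-PD-L1 against isotype and 4 for CB against anti-PD-L1. With a sample left out they ranged over 0 to 10, 0 to 1, 4 to 57, 42 to 125 and 0 to 2 in the same order. The replicate numbers were not used as pairs. Same-numbered samples of different groups correlated with a median r of 0.0606 in their deviations from group means (2 of 18 pairs over 0.1). For differently numbered samples of different groups the median r was -0.0149 (0 of 36 pairs over 0.1). Of the 12 samples, 10 were nearest to a sample of their own number. That is a hint from the data, as the sources do not say which samples were sorted together. In its principal component analysis, the paper attributes a component largely to sort batches. Il21 and Atp2a3 kept their calls in all 20 alternatives, and Atp2a2, Irf4, Il2ra and Camk2d lost them against a log2 fold change of 0.2 (adjusted p = 0.0993, 0.221, 0.248 and 0.393). Il2ra and Camk2d also lost them with only the groups compared (adjusted p = 0.0543 and 0.0658). Other scalings left the median of all genes within 0.01 on the log2 scale. This median cannot show a small shift. In CB against isotype 7388 of the 15138 genes were above 0 and 7488 below, so it fell among genes at exactly 0. The alternative measure of likeness has no value because no member was called. Depth limits Rcan1 most, with 89 to 277 reads per sample.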
